A study of Rattus norvegicus with 9 samples.

Results

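The heat shock protein and DnaJ chaperone genes were followed through carcinogen treatment of the rat tongue and through blockade of the interleukin-1 receptor. Members were the genes with a probe set of a single symbol beginning with Hspa, Hspb, Hspd, Hspe or Hsph and a number, with Hsp90, or with Dnaja, Dnajb or Dnajc and a number. There were 62 such genes among the 14217 genes measured, read by 96 of the 31042 probe sets tested, and each gene was represented by its probe set of the highest mean over the 9 arrays. Another 6 probe sets carried several symbols and were left out of all counts, so that Hspa1b, Hspa8 and Hsp90aa1 were not members.

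Tongue tissue of male Sprague Dawley rats was profiled on Affymetrix Rat Genome 230 2.0 arrays, with 3 arrays in each of 3 groups. Normal rats had distilled water to drink. The 4NQO group was given 0.002% 4-nitroquinoline 1-oxide in it, a carcinogen that forms DNA adducts and brings on leukoplakia and squamous cell carcinoma of the tongue, and by the methods of the study was then injected under the tongue mucosa with saline. The IL-1Ra group received the same carcinogen followed by weekly injections of IL-1Ra, the natural antagonist of the interleukin-1 receptor, between week 14 and week 22. The labels give carcinogen dosing as lasting 22 weeks, whereas the methods end it when the injections began. The IL-1Ra animals therefore carried the carcinogen treatment too, and no group received the antagonist alone. By the methods, both carcinogen groups were injected weekly under chloral hydrate anaesthesia, and no injection is described for normal rats. Carcinogen and repeated injection therefore cannot be told apart in the comparisons with normal tongue. The lesion stage of each tongue and the age of the animals were not given. The samples were pieces of tongue that held epithelium, connective tissue and muscle together, so fewer cells of a type and less RNA per cell cannot be told apart. Nothing in the labels states that the 3 samples of a group were separate animals, and the p-values measure the spread between samples only.

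Molecular chaperones hold or refold other proteins. HSP70 proteins bind unfolded stretches in a cycle driven by ATP, J-domain proteins of the DnaJ families deliver clients and speed up the hydrolysis, HSP110 proteins exchange the nucleotide, and HSP90 proteins act on clients closer to their native state. Small heat shock proteins hold unfolding proteins without ATP and are abundant in muscle and stratified epithelium. Heat shock factor Hsf1 raises many cytosolic chaperone genes through heat shock elements in their promoters, while chaperones of the endoplasmic reticulum (ER) are raised by the unfolded protein response through the ER stress response element.

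The 5 promoters printed here belong to genes described below, and they show matches to the elements searched for. Each is the stretch of 250 bases before the annotated start of the gene, from RefSeq on the GRCr8 build, 5' to 3' on the strand of the gene. Capitals mark the matched element. Hsph1 lay at chr12:10427118-10427367 on the plus strand and held the heat shock element with 3 units, GAANNTTCNNGAA, found on either strand. Dnajb1 lay at chr19:41431142-41431391 on the minus strand and held the shorter form with 2 units, GAANNTTC, which is also contained in the longer one. Hspa5 lay at chr3:38452766-38453015 on the plus strand, Hsp90b1 at chr7:23012294-23012543 on the minus strand and Dnajc3 at chr15:102432417-102432666 on the plus strand, each with the ER stress response element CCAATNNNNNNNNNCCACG, of which Hsp90b1 held 2 copies.
Hsph1: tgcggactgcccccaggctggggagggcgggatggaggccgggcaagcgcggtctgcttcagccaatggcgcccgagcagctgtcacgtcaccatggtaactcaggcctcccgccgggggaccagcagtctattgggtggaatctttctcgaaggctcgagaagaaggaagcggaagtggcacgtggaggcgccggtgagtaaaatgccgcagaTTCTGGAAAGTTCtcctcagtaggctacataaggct
Dnajb1: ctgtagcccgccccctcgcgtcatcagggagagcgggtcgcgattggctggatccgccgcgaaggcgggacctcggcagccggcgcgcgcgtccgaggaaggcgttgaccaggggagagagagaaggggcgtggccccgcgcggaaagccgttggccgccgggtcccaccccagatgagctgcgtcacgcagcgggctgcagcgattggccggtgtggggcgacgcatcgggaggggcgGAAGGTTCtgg
Hspa5: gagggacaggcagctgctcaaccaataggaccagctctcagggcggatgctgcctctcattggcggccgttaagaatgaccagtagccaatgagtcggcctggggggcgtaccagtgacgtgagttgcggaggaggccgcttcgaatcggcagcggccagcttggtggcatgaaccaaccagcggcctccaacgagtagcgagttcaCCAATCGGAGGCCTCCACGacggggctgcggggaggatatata
Hsp90b1: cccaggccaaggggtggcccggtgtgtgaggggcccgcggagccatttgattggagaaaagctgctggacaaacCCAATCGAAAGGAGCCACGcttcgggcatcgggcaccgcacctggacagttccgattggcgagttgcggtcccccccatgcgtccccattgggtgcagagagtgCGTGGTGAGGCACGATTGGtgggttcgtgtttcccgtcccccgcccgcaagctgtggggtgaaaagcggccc
Dnajc3: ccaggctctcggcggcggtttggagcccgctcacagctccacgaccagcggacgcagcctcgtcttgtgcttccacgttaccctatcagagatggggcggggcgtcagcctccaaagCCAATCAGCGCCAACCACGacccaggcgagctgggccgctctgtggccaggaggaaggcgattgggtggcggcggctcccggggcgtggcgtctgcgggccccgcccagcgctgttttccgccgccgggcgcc
Promoters were at hand for 51 of the 62 members. The element with 3 units stood in 3 of them (5.88%), Hspd1, Hspe1 and Hsph1, and in 0.663% of the promoters of all 27457 genes. The form with 2 units stood in 11 members (21.6%) and in 7.71% of all promoters, and 6 of the 10 members classed as Hsf1-induced held it. The ER stress response element stood in 3 members (5.88%), Hspa5, Hsp90b1 and Dnajc3, all of them among the 10 ER members, and in 0.0765% of all promoters. These are matches of letters only. They are counted per gene, so an element shared by neighbouring genes would count for each of them.

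Values are log2 of the deposited intensities, differences are log2 units given with their standard errors (SE), and a gene was called when its limma p-value, adjusted by Benjamini-Hochberg over all probe sets, was under 0.05. The upper quartile of an array ran from 7.04 to 7.08 in normal tongue, from 7.16 to 7.26 in IL-1Ra tongue and from 7.21 to 7.28 in 4NQO tongue, so brighter probe sets lay higher on the treated arrays before any gene was considered. Because chaperone probe sets are mostly bright, the counts are also set beside the 5761 genes of like brightness, those whose mean lay in the interquartile range of the members, from 6.54 to 9.27, a set chosen after seeing the data, and the effect of a further quantile or cyclic loess normalization is given (the other scalings). The genes of like brightness were drawn from the range of the 62 members together, and a smaller list can be brighter or dimmer than they are. The 4NQO arrays varied most, with a median SD of a member of 0.17 against 0.09 in normal and 0.12 in IL-1Ra tongue. Of the 62 members, 57 lay above the dimmest 40% of probe sets, and Dnajb7 and Hspa1l lay under the lower quartile on every array. The comparisons share arrays: the 4NQO group enters 2 of them, as do the other groups, so their values are given side by side and are not independent.

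**Figure D1:**
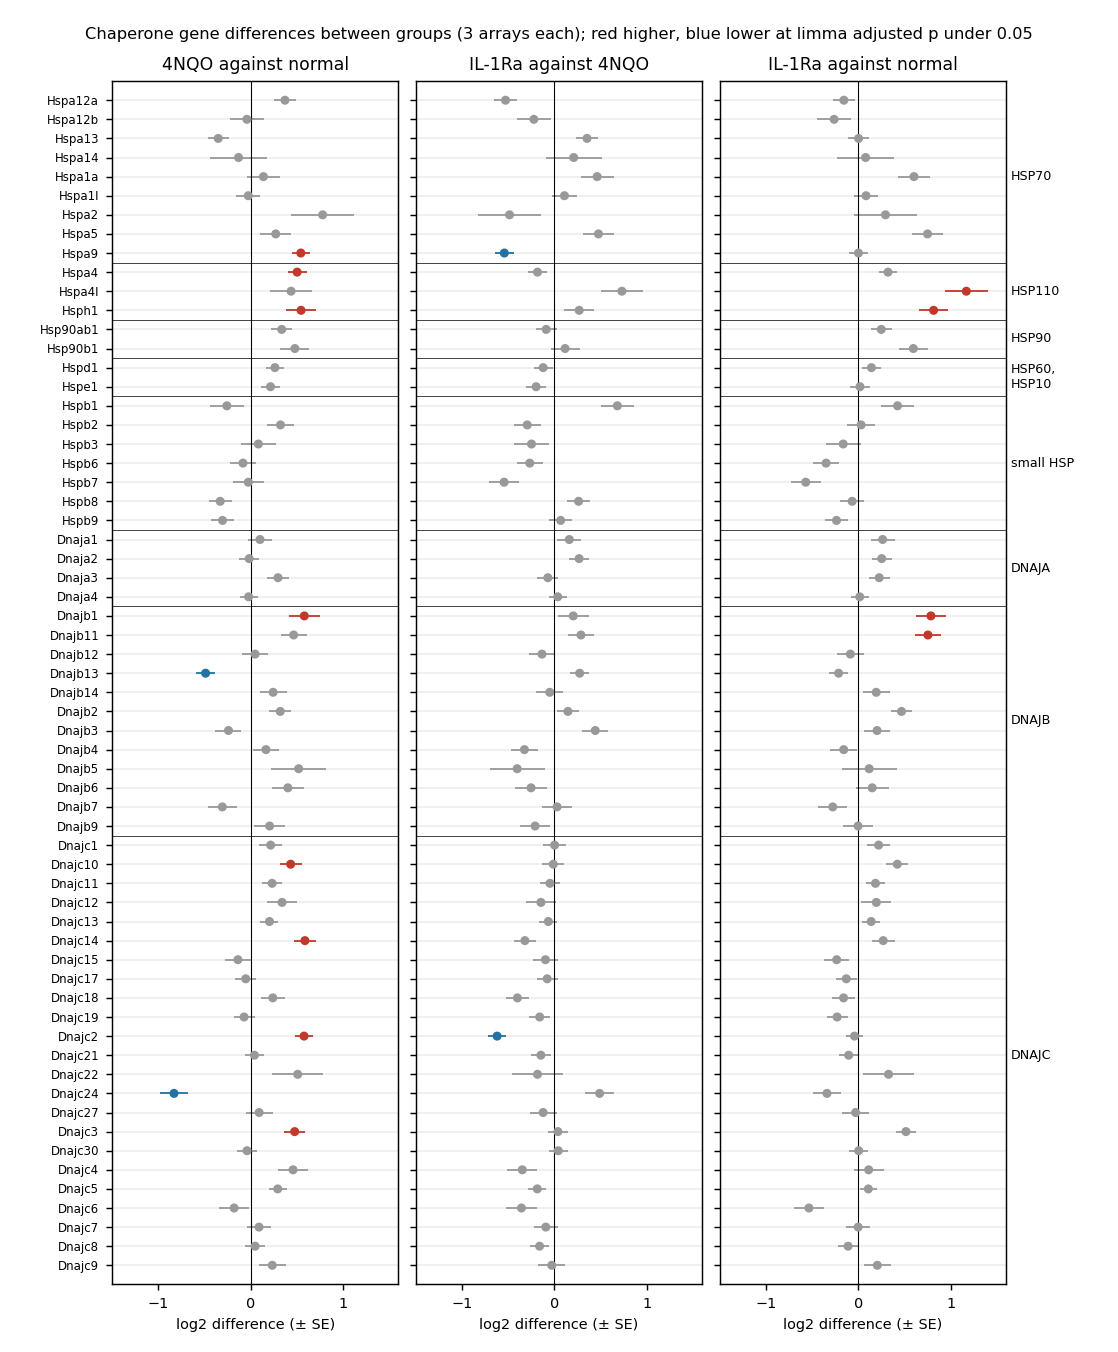
Log2 difference of each of the 62 chaperone genes in the 3 comparisons, by family, with bars of 1 SE from the limma fit and colour for genes called higher or lower at adjusted p under 0.05. In 4NQO against normal 8 genes are called higher and 2 lower, in IL-1Ra against 4NQO 0 and 2, and in IL-1Ra against normal 4 and 0.

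In 4NQO tongue, the mitochondrial HSP70 Hspa9, the HSP110 genes Hspa4 and Hsph1 and the J-domain genes Dnajc2, Dnajc14, Dnajc3, Dnajc10 and Dnajb1 were higher than in normal tongue, by 0.43 to 0.59 log2 units. Dnajc24 and Dnajb13 were lower. These 8 higher members were 12.9% of the 62, where 12.4% of all genes were called higher, and the 2 lower members were 3.23%, where 5.08% of all genes were called lower. The median member differed by 0.21, against 0.08 over all genes and 0.23 over the genes of like brightness, of which 20.5% were called higher. The share of chaperones called higher thus lay close to that of all genes and below that of the genes of like brightness. All 3 arrays of one group lay above all 3 of the other for 23 of the 62 members in 4NQO tongue and for 5 in normal tongue. The same counts were 3771 and 2098 of all 14217 genes, and 2360 and 406 of the 5761 genes of like brightness.

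Scaling and single arrays changed these counts. After a further quantile normalization 3 members were higher (Hspa9, Dnajc2 and Dnajc14) and 3 lower (Dnajc24, Dnajb13 and the ER-associated HSP70 Hspa13), where 5.24% and 4.71% of all genes were called; after cyclic loess Hspa9 was the 1 higher member beside the same 3 lower ones. Without normal replicate 3 there were 1 higher and 0 lower members, without normal replicate 2 there were 2 and 1, without normal replicate 1 there were 4 higher, and without IL-1Ra replicate 2 or 4NQO replicate 1 there were 5 higher.

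Markers of other cell types moved in the same comparison. Of 10 basal keratinocyte markers 6 rose in 4NQO tongue, with a list median of 1.09, and of 7 endothelial markers 4 rose, with a median of 0.76. Of 10 fibroblast markers 7 fell, with a median of -1.11, and of 8 leukocyte markers 2 fell, with a median of -0.42. The summed intensity of the basal keratinocyte markers ran from 9015 to 14820 in normal, 16220 to 29220 in 4NQO and 16760 to 21050 in IL-1Ra tongue, both treated groups above normal. That of the endothelial markers ran from 1428 to 1606, 1906 to 2483 and 1494 to 1839 in the same order, with 4NQO above both other groups. Fibroblast markers summed to between 19790 and 22960, between 5036 and 14530 and between 13610 and 17260, lowest on 4NQO replicate 2, and leukocyte markers to between 355.1 and 451.5, between 225.2 and 408.1 and between 407.8 and 524.1. In IL-1Ra against 4NQO 0 markers of these 4 lists were called, and none of them lay under the lower quartile on all 9 arrays. List medians there were -0.45 for basal keratinocyte, -0.51 for endothelial, 0.70 for fibroblast and 0.46 for leukocyte markers, against -0.04 over all genes. All 10 fibroblast and 8 leukocyte estimates were above 0, and all 7 endothelial and 8 of 10 basal keratinocyte estimates were below. The part of these cell types in the chaperone values was not tested.

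Hspa9 encodes mortalin, which draws proteins into the mitochondrial matrix. It read 9.90, 9.98 and 9.96 on the normal arrays, 10.51, 10.54 and 10.41 on the 4NQO arrays and 9.93, 9.85 and 10.06 on the IL-1Ra arrays. All 4NQO arrays stood above the other 6, among which normal and IL-1Ra values were interleaved. The difference from normal was 0.54 ± 0.10 (limma adjusted p = 0.0109), a 1.46-fold change, and it was called under both other scalings, at 0.50 and 0.42. A second bright probe set of Hspa9 gave 0.45 (limma adjusted p = 0.0338), whereas 2 dim ones gave -0.24 and -0.18 and were not called. The call was lost without normal replicate 3 and when the probe sets of the gene were averaged.

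The other mitochondrial chaperones gave smaller values. Hspd1 and Hspe1, which form the HSP60 and HSP10 folding chamber, differed by 0.26 ± 0.10 (limma adjusted p = 0.103) and 0.22 ± 0.11 (0.190). Hspd1 read 11.70, 11.81 and 11.60 in normal tongue and 12.00, 11.86 and 12.04 in 4NQO tongue, and 11.83, 11.84 and 11.87 in IL-1Ra tongue, with normal tongue below both treated groups. Hspe1 read 11.12, 11.19 and 11.05 on normal, 11.45, 11.17 and 11.38 on 4NQO and 11.08, 11.14 and 11.20 on IL-1Ra arrays, and the groups overlapped. Of the 8 mitochondrial members, Hspa9 was the 1 called (12.5%), beside 12.4% of all genes and 20.5% of genes of like brightness called higher. The median difference of the 8 was 0.22, beside 0.08 and 0.23 in those sets, and it was 0.09 and 0.06 under the other scalings.

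Dnajc2, a J-domain protein that binds the ribosome and works on nascent chains, was the 1 call among the 10 that was made with each of the 9 arrays left out in turn. It read 7.52, 7.56 and 7.63 in normal tongue, 8.06, 8.22 and 8.16 in 4NQO tongue and 7.58, 7.46 and 7.55 in IL-1Ra tongue. As for Hspa9, the 4NQO arrays alone were high and the other groups overlapped. The difference was 0.58 ± 0.10 (limma adjusted p = 0.00843), and it ran from 0.54 to 0.62 with 1 array left out. The call was lost after cyclic loess and in the average with a second probe set, which lay under the lower quartile on all 9 arrays and gave -0.19.

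The HSP110 exchange factors act on HSP70. Hspa4 read 7.03, 6.96 and 6.94 on normal arrays, 7.48, 7.41 and 7.56 on 4NQO arrays and 7.19, 7.40 and 7.31 on IL-1Ra arrays, a step up in 4NQO with IL-1Ra between. Its difference in 4NQO tongue was 0.50 ± 0.10 (limma adjusted p = 0.0143). Hsph1 read 8.43, 8.46 and 8.27, then 9.12, 8.57 and 9.12, then 9.31, 9.04 and 9.26 in the same order. Both treated groups lay above normal tongue and overlapped each other, and 4NQO replicate 2 lay lowest among the treated arrays. Hsph1 differed by 0.55 ± 0.16 between 4NQO and normal tongue (limma adjusted p = 0.0467), and a second, dimmer probe set gave 1.02 (0.00740). Both calls were lost under the other scalings, that of Hspa4 also without normal replicate 2 or 3, and that of Hsph1 on its brighter probe set with 8 of the 9 arrays left out in turn.

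Dnajb1 is the main cytosolic partner of inducible HSP70. It read 8.81, 8.40 and 8.89 on normal, 9.20, 9.08 and 9.55 on 4NQO and 9.59, 9.31 and 9.55 on IL-1Ra arrays, again with both treated groups above normal. The difference between 4NQO and normal tongue was 0.58 ± 0.17 (limma adjusted p = 0.0439), and its second probe set, at 0.49, was not called (0.146). The first call was lost under both other scalings and with 8 of the 9 arrays left out.

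Of the chaperones at the ER, Dnajc3 restrains the kinase Perk and serves BiP, Dnajc10 reduces disulphide bonds of misfolded proteins, and Dnajc14 is a membrane protein that helps receptors leave the ER. Dnajc3 read 8.17, 8.02 and 8.09 in normal, 8.45, 8.58 and 8.69 in 4NQO and 8.56, 8.76 and 8.51 in IL-1Ra tongue. Dnajc10 read 8.33, 8.29 and 8.16, then 8.82, 8.66 and 8.60, then 8.54, 8.63 and 8.87. For both, the treated groups overlapped each other and stood wholly above normal tongue, with 4NQO differences of 0.48 ± 0.11 (limma adjusted p = 0.0232) and 0.43 ± 0.12 (0.0391). Dnajc14 read 6.20, 5.94 and 6.01 in normal, 6.75, 6.56 and 6.61 in 4NQO and 6.15, 6.49 and 6.31 in IL-1Ra tongue, so that only the 4NQO arrays were separate from both other groups. It differed by 0.59 ± 0.12 (limma adjusted p = 0.0162), its second probe set gave 0.52 (0.0251), and a second probe set of Dnajc10 gave 0.02. Dnajc3 and Dnajc10 lost their calls under both other scalings, and Dnajc14 after cyclic loess alone. Leaving out single arrays ended the call of Dnajc10 for 6 of the 9, that of Dnajc3 for each of the 3 normal arrays and that of Dnajc14 for normal replicate 2 or 3, and Dnajc10 was not called with the mean of its probe sets, at 0.23.

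Among the 10 members classed as ER proteins, which do not include Dnajc14, 2 rose (20%) and 9 estimates were above 0, with a median of 0.26. This stands beside 12.4% of all genes and 20.5% of genes of like brightness called higher, and under both other scalings 0 of the 10 were higher and Hspa13 was lower. Their central member Hspa5, the ER HSP70 known as BiP, differed by 0.27 ± 0.17 (limma adjusted p = 0.288). Hsp90b1, the ER HSP90, differed by 0.48 ± 0.16 (0.0659) and Dnajb11, a luminal partner of BiP, by 0.47 ± 0.14 (0.0512). Dnajb9, which the unfolded protein response raises and which holds the sensor Ire1 inactive, read 8.42, 8.38 and 8.31 in normal, 8.46, 8.86 and 8.41 in 4NQO and 8.68, 8.27 and 8.14 in IL-1Ra tongue. Its groups overlapped throughout, and it differed by 0.21 ± 0.16 (limma adjusted p = 0.407).

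Both lower members do work other than general folding. Dnajc24 takes part in the synthesis of diphthamide, the modified residue of elongation factor 2. It read 6.82, 6.93 and 7.04 in normal, 6.0, 6.07 and 6.24 in 4NQO and 6.25, 6.67 and 6.85 in IL-1Ra tongue. The 4NQO arrays lay below all others, and IL-1Ra replicate 1 lay barely above them. The difference of -0.83 ± 0.15 (limma adjusted p = 0.0113) was the largest in size among the 62 members in this comparison and was -0.99 and -1.01 under the other scalings, but a second, dimmer probe set gave -0.05. Dnajb13, a component of the radial spokes of cilia and sperm tails, read 5.71, 5.93 and 5.83 in normal, 5.28, 5.33 and 5.39 in 4NQO and 5.67, 5.54 and 5.61 in IL-1Ra tongue, with the IL-1Ra arrays between the other groups and apart from both. It differed by -0.49 ± 0.10 (limma adjusted p = 0.0161) and was called under both other scalings, while the call was lost without normal replicate 2 or 3.

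**Figure D2:**
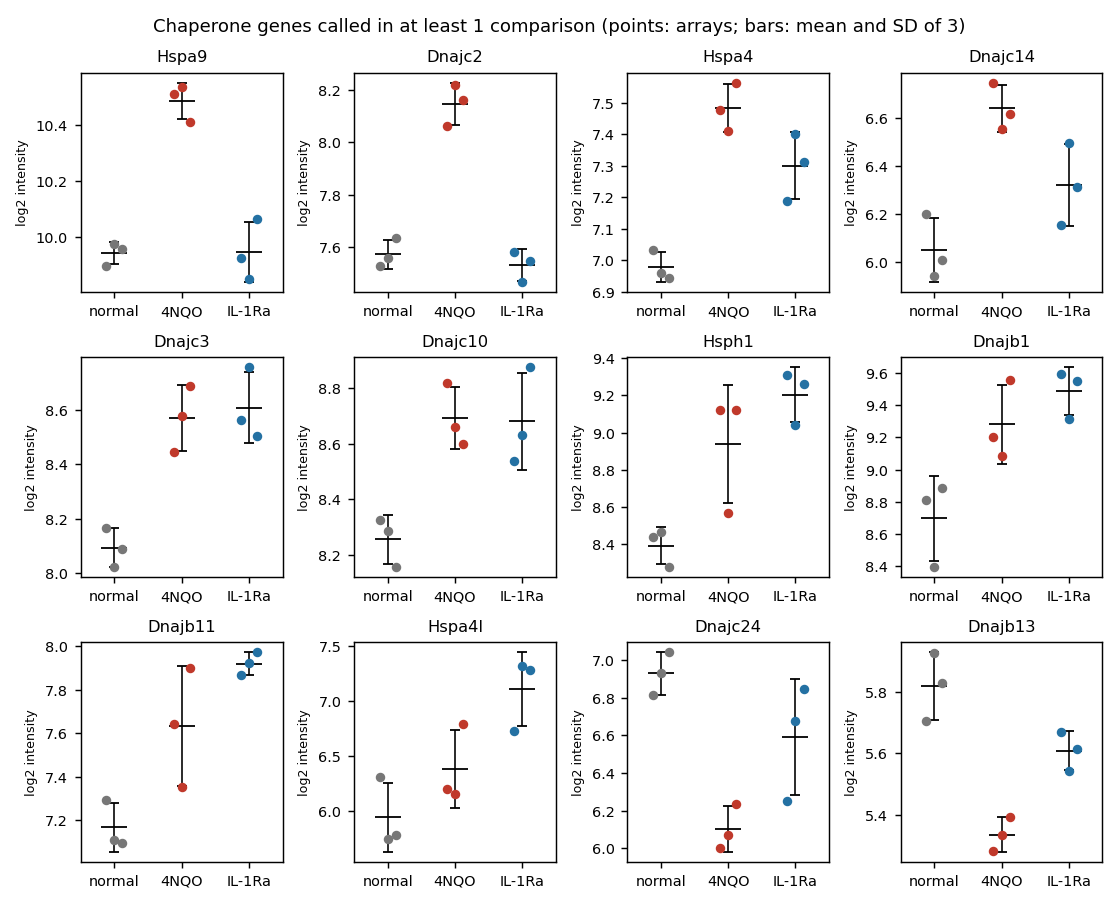
Log2 intensity of the 12 chaperone genes called in at least 1 comparison, 1 panel per gene, with a point per array and a bar at the mean ± SD of each group; the vertical axes do not start at 0. Hspa9 and Dnajc2 are high on the 4NQO arrays alone, whereas Dnajc3, Dnajc10, Hsph1, Dnajb1 and Dnajb11 are above normal in both treated groups.

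HSP90 depended on the probe set. Hsp90ab1, the constitutive cytosolic HSP90, read 11.69, 11.64 and 11.63 in normal, 11.93, 11.86 and 12.18 in 4NQO and 12.02, 11.87 and 11.82 in IL-1Ra tongue, with both treated groups above normal. The difference between 4NQO and normal tongue was 0.34 ± 0.11 (limma adjusted p = 0.0719). Its other probe set, less bright, read 10.90, 10.64 and 10.85 on normal, 11.54, 11.66 and 11.63 on 4NQO and 11.46, 11.41 and 11.22 on IL-1Ra arrays and was called, at 0.82 ± 0.11 (0.00496). Between IL-1Ra and normal tongue this less bright probe set was also called, at 0.57 ± 0.11 (limma adjusted p = 0.0440). The brighter one gave 0.25 ± 0.11 there (0.226). By the rule of 1 probe set per gene Hsp90ab1 counts among the 52 members not called in 4NQO against normal. A probe set shared by Hsp90aa1 and Hsp90aa1-ps17, outside the members, was called in 4NQO against normal, at 0.58 ± 0.12 (limma adjusted p = 0.0156). It was also called in IL-1Ra against normal, at 0.60 ± 0.12 (limma adjusted p = 0.0449). Another with the same symbols gave 0.14 ± 0.13 and 0.33 ± 0.13 there and was not called (limma adjusted p = 0.486 and 0.176).

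Other well-known cytosolic members were not called. Hspa1a, the inducible cytosolic HSP70, differed by 0.14 ± 0.18 (limma adjusted p = 0.616). Dnaja1, a cytosolic J-domain partner that is farnesylated, differed by 0.10 ± 0.13 (limma adjusted p = 0.610). A second probe set of Dnaja1 gave 0.39 ± 0.14 (limma adjusted p = 0.0859), with every 4NQO array above normal. Hspa2, an HSP70 best known from the testis, read 2.90, 4.02 and 3.57 in normal, 4.91, 4.20 and 3.72 in 4NQO and 3.91, 3.39 and 4.08 in IL-1Ra tongue, near the lower quartile of the arrays and with overlap between all groups. It differed by 0.78 ± 0.34 (0.142). A second probe set of Hspa2 gave 0.95 ± 0.38 (limma adjusted p = 0.116), with every 4NQO array above normal. Over the 10 measured members classed as Hsf1-induced, 3 rose (Hsph1, Dnajb1 and Hspa4), 9 estimates were above 0 and the median was 0.30. Over all genes 12.4% rose and 58% of estimates were above 0, and over genes of like brightness 20.5% and 75.6%, with a median of 0.23. Of the 10, Hspa1a, Hsp90ab1, Hspb1, Hspd1 and Hspe1 were brighter than the range from which the genes of like brightness were drawn. The median of the 10 was 0.30 and 0.25 under the other scalings, with 0 of the 10 called. The median over all genes went from 0.08 to 0.02 and 3e-04, and that over genes of like brightness from 0.23 to 0.06 and 0.02.

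The comparison of IL-1Ra with 4NQO tongue asks what receptor blockade changed on top of the carcinogen. Hspa9 and Dnajc2 were lower in IL-1Ra tongue, at -0.54 and -0.62 log2 units, and these were 2 of the genes that 4NQO tongue had higher than normal. No member was called higher. The 2 lower members were 3.23% of the 62, where 0.753% of all genes were called lower, and the 0 higher members stand beside 1.91% of all genes. Of the genes of like brightness 1.13% were lower and 2.66% higher. At an unadjusted limma p under 0.05, 9 members were higher (14.5%) and 7 lower (11.3%), against 9.39% and 12.3% of all genes and 10.5% and 18.1% of those of like brightness. The median member differed by -0.08, against -0.04 over all genes and -0.10 over those of like brightness.

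The values of Hspa9 given above put 4NQO at 10.49 ± 0.07 and IL-1Ra at 9.95 ± 0.11 (mean ± SD, n = 3), with normal tongue at 9.94 ± 0.04. The difference between IL-1Ra and 4NQO was -0.54 ± 0.10 (limma adjusted p = 0.0252), and between IL-1Ra and normal 0.00 ± 0.10 (0.991). Its second bright probe set gave -0.37 (0.132). Dnajc2 stood at 8.15 ± 0.08 in 4NQO, 7.53 ± 0.06 in IL-1Ra and 7.57 ± 0.06 in normal tongue, so that IL-1Ra differed from 4NQO by -0.62 ± 0.10 (limma adjusted p = 0.0139) and from normal by -0.04 ± 0.10 (0.837). Both lower calls were made under both other scalings. They were lost when the 6 arrays of these groups were fitted alone, and also with the mean of the probe sets of each gene, at -0.22 for Dnajc2 (limma adjusted p = 0.199) and -0.12 for Hspa9 (0.466). The 1 member lower by that mean was Hspa12a. Dnajc2 lost its call without IL-1Ra replicate 2, and Hspa9 without 6 of the 9 arrays in turn.

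Counts in this comparison depended on single arrays. Without 4NQO replicate 3, 2 members were higher, Hspb1 at 0.89 (limma adjusted p = 0.0102) and Hspa4l at 0.94 (0.0377), and 4 were lower; without IL-1Ra replicate 2, 0 were lower. Hspa12a, an HSP70 relative whose ATPase domain is atypical, came nearest the threshold among the members not called. It read 6.96, 6.90 and 6.66 in 4NQO, 6.26, 6.28 and 6.38 in IL-1Ra and 6.34, 6.62 and 6.44 in normal tongue, and differed between IL-1Ra and 4NQO by -0.53 ± 0.12 (0.0526). The 4NQO arrays stood above both other groups, which overlapped. Hspa12a was chosen for mention after its values were seen.

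Members that the carcinogen and IL-1Ra groups shared above normal did not differ between them by a called amount. Dnajc3 differed by 0.04 ± 0.11 (limma adjusted p = 0.887), Dnajc10 by -0.01 ± 0.12 (0.971), Hsph1 by 0.27 ± 0.16 (0.401) and Dnajb1 by 0.20 ± 0.17 (0.551). The second probe set of Dnajb1 read 7.68, 7.53 and 8.18 in 4NQO and 8.67, 8.37 and 8.43 in IL-1Ra tongue, a difference of 0.69 ± 0.22 that was not called (0.123). Hspa4 and Dnajc14 gave -0.18 ± 0.10 (0.367) and -0.32 ± 0.12 (0.199), and the lower pair of the first comparison gave 0.49 ± 0.15 for Dnajc24 (0.127) and 0.27 ± 0.10 for Dnajb13 (0.181).

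Against normal tongue, IL-1Ra tongue had 4 members higher: the HSP110 genes Hspa4l and Hsph1, the cytosolic J-domain gene Dnajb1 and the ER J-domain gene Dnajb11, by 0.75 to 1.17 log2 units. None was lower. The 4 were 6.45% of the members, where 1.66% of all genes were called higher, and the 0 lower members stand beside 0.542%. At an unadjusted limma p under 0.05, 13 members were higher (21%) and 3 lower (4.84%), against 17% and 8.67% of all genes and 26.3% and 4.62% of those of like brightness. The median member differed by 0.10, against 0.04 over all genes and 0.15 over those of like brightness, of which 2.78% were called higher. Arrays did not overlap for 21 of the 62 members above and 8 below normal. The same counts were 3681 and 2044 of all 14217 genes, and 2226 and 518 of the 5761 genes of like brightness.

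These 4 calls were close to the threshold. Each was lost after a further quantile or cyclic loess normalization, under which 0.274% and 0.0914% of all genes were called higher, although the differences stayed at 0.61 or more. Leaving out any normal or IL-1Ra array, or 4NQO replicate 1, also left 0 members higher, whereas 8 were higher without 4NQO replicate 3 and 9 when the normal and IL-1Ra arrays were fitted alone.

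Hspa4l, an HSP110 relative first described in testis and induced by mild heat, had the largest value of the 62 members in this comparison. It read 6.31, 5.75 and 5.78 in normal, 6.20, 6.15 and 6.80 in 4NQO and 6.73, 7.32 and 7.29 in IL-1Ra tongue. The IL-1Ra arrays stood above normal, while 4NQO overlapped both other groups. The difference from normal was 1.17 ± 0.23 (limma adjusted p = 0.0440), a 2.25-fold change, against 0.44 ± 0.23 for 4NQO (0.212).

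Hsph1 differed by 0.81 ± 0.16 between IL-1Ra and normal tongue (limma adjusted p = 0.0440) and its second probe set by 0.98 ± 0.16 (0.0365). Dnajb1 differed by 0.79 ± 0.17 (0.0492), and its second probe set, at 8.67, 8.37 and 8.43 against 7.56, 6.86 and 7.50, by 1.18 ± 0.22 (0.0406). Dnajb11 read 7.30, 7.11 and 7.09 in normal, 7.64, 7.35 and 7.90 in 4NQO and 7.87, 7.92 and 7.97 in IL-1Ra tongue. The IL-1Ra arrays were tightly grouped above normal, and 4NQO replicate 3 reached into their range. Dnajb11 differed by 0.75 ± 0.14 (limma adjusted p = 0.0428).

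The ER partners of Dnajb11 came near the threshold. Hspa5 read 9.72, 9.57 and 9.50 in normal, 9.91, 9.82 and 9.88 in 4NQO and 10.75, 10.28 and 10.00 in IL-1Ra tongue. The 3 groups did not overlap, and IL-1Ra replicate 1 was the highest array. Its difference between IL-1Ra and normal tongue was 0.75 ± 0.17 (limma adjusted p = 0.0559), which was called under 6 of the alternatives tried, at adjusted p from 0.0139 to 0.0485. Hsp90b1 read 9.73, 9.53 and 9.24, then 9.79, 9.88 and 10.26, then 10.15, 10.08 and 10.05, with both treated groups above normal and overlapping each other. Hsp90b1 differed by 0.60 ± 0.16 (limma adjusted p = 0.0735), and Dnajc3 by 0.52 ± 0.11 (0.0519). Both were also called under some alternatives, Dnajc3 at limma adjusted p from 0.0123 to 0.0480 and Hsp90b1 from 0.0292 to 0.0365.

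Hspa1a read 9.72, 9.68 and 9.76 in normal, 9.93, 9.89 and 9.77 in 4NQO and 10.78, 9.97 and 10.22 in IL-1Ra tongue. As with Hspa5 the groups did not overlap and IL-1Ra replicate 1 was highest, and the difference from normal was 0.60 ± 0.18 (limma adjusted p = 0.0924). On a probe set shared by Hspa1a and Hspa1b, outside the members, 4NQO overlapped both other groups. IL-1Ra differed from normal there by 0.69 ± 0.22 (limma adjusted p = 0.113). Dnaja1 read 8.86, 8.87 and 8.85 in normal, 8.77, 8.94 and 9.18 in 4NQO and 9.26, 8.95 and 9.16 in IL-1Ra tongue. IL-1Ra was above normal by 0.26 ± 0.13 (limma adjusted p = 0.252), and by 0.38 ± 0.14 on its second probe set (0.147). All 10 measured members of the Hsf1-induced group had estimates above 0, for 9 of them the IL-1Ra arrays lay wholly above normal, and 3 were called. Over all 14217 genes 56.2% of estimates were above 0, 3681 genes lay wholly above normal and 1.66% were called higher, and over the 5761 genes of like brightness 71%, 2226 and 2.78%. The median of the 10, 0.37, was 0.35 and 0.39 under the other scalings, with 0 called. Among the 10 ER members 1 was called and the median was 0.32, or 0.19 and 0.20 under the other scalings, and the 8 mitochondrial members had 0 called and a median of 0.01.

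**Figure D3:**
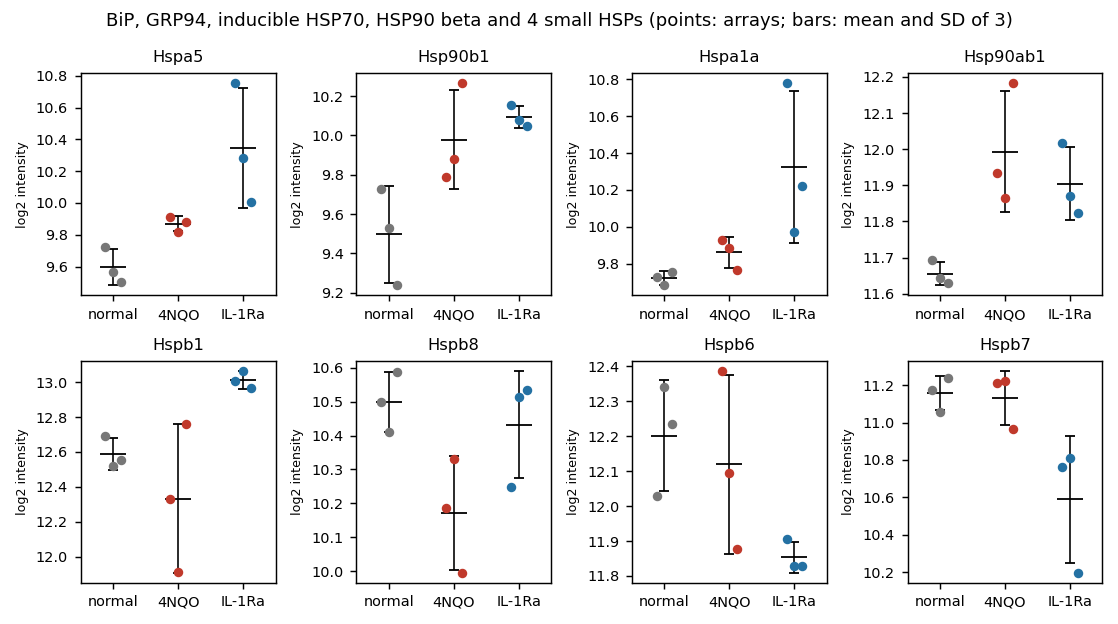
Log2 intensity of 8 chaperone genes that were not called on their representative probe set, 1 panel per gene, with a point per array and a bar at the mean ± SD of each group; the vertical axes do not start at 0. Hspa5 and Hspa1a step up from normal to 4NQO to IL-1Ra with IL-1Ra replicate 1 highest, and Hspb7 is lowest in IL-1Ra tongue.

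No small heat shock protein was called on its representative probe set in any comparison. Hspb1, known as HSP27 and abundant in the upper layers of stratified epithelium, read 12.69, 12.52 and 12.55 in normal, 12.33, 11.91 and 12.76 in 4NQO and 13.01, 13.07 and 12.97 in IL-1Ra tongue. The IL-1Ra arrays were above all others, and the 4NQO arrays were widely spread, with replicate 2 lowest. Hspb1 differed by -0.26 ± 0.18 between 4NQO and normal (limma adjusted p = 0.353), by 0.68 ± 0.18 between IL-1Ra and 4NQO (0.0845) and by 0.43 ± 0.18 between IL-1Ra and normal (0.202). The summed intensity of 22 markers of cornified keratinocytes gave the same order of groups: it ran from 69650 to 80190 in normal, 22400 to 55840 in 4NQO, lowest on replicate 2, and 89040 to 92490 in IL-1Ra tongue, with 9 of the 22 lower in 4NQO than normal and 8 higher in IL-1Ra than 4NQO. The part of these cells in the Hspb1 values was not tested.

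Hspb8 works with Bag3 to route damaged muscle proteins to autophagy. It read 10.50, 10.41 and 10.59 in normal, 10.19, 10.33 and 10.00 in 4NQO and 10.25, 10.51 and 10.54 in IL-1Ra tongue, with 4NQO below normal, at a difference of -0.33 ± 0.13 (limma adjusted p = 0.104). A second probe set read 9.94, 9.87 and 9.99, then 9.41, 9.31 and 8.92, then 9.70, 10.06 and 9.91. There 4NQO lay below both other groups and was called lower than normal, at -0.72 ± 0.15 (0.0142), and IL-1Ra was called higher than 4NQO, at 0.68 ± 0.15 (0.0443). The average of both probe sets was called lower in 4NQO than normal, at -0.52 (0.0261).

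The muscle small heat shock proteins Hspb6 and Hspb7 had their lowest means in IL-1Ra tongue. Hspb7, which protects sarcomeres, read 11.17, 11.06 and 11.24 in normal, 11.21, 11.22 and 10.97 in 4NQO and 10.76, 10.81 and 10.20 in IL-1Ra tongue. The IL-1Ra arrays lay below all others, with a difference of -0.57 ± 0.16 from normal (limma adjusted p = 0.0889), and the other groups overlapped. Its second probe set read 8.71, 8.50 and 8.55, then 8.12, 7.90 and 7.84, then 8.16, 7.95 and 7.55, and there 4NQO was called lower than normal at -0.63 ± 0.16 (0.0284), where the brighter one gave -0.02. Hspb6, known as HSP20, read 12.03, 12.34 and 12.23, then 12.39, 12.09 and 11.88, then 11.90, 11.83 and 11.83, with IL-1Ra below normal, at a difference of -0.35 ± 0.14 (0.183). Over the 9 members enriched in muscle 0 were called in any comparison, with medians of 0.09 for 4NQO against normal, -0.27 for IL-1Ra against 4NQO and -0.07 for IL-1Ra against normal. The summed intensity of 27 skeletal muscle markers ran from 123200 to 137700 in normal, 118300 to 149800 in 4NQO and 107500 to 121800 in IL-1Ra tongue, 4 of them lower in IL-1Ra than 4NQO and 0 under the lower quartile on every array, and the part of muscle content in these values was not tested.

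The partners of the chaperones were read from lists that hold no member. Their counts in 4NQO tongue stand beside 12.4% of all genes and 20.5% of genes of like brightness called higher, and beside 58% and 75.6% of estimates above 0, with medians of 0.08 and 0.23. Of 28 measured cochaperones of HSP70 and HSP90, 8 rose in 4NQO tongue (28.6%), 0 fell and 24 estimates were above 0 (85.7%), with a median of 0.28. After the other scalings 1 rose and 1, Bag2, fell, with medians of 0.14 and 0.11. Bag3, the exchange factor that pairs with Hspb8, read 10.10, 10.07 and 9.98 in normal, 10.57, 10.57 and 10.57 in 4NQO and 10.64, 10.47 and 10.34 in IL-1Ra tongue, with both treated groups above normal. It differed by 0.52 ± 0.11 in 4NQO (limma adjusted p = 0.0148), and was the 1 rise of the list that both other scalings called. Fkbp4 and Unc45a, which serve HSP90, differed by 0.48 ± 0.11 (0.0185) and 0.73 ± 0.19 (0.0292). In IL-1Ra against 4NQO 0 of the 28 were called, though Bag2, at 0.44 (0.0534), was called higher under both other scalings. In IL-1Ra against normal Fkbp4 was called, at 0.54 ± 0.11 (0.0440), and 0 of the 28 were under either other scaling.

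All 8 subunits of the chaperonin TRiC, which folds actin and tubulin, were above normal on every 4NQO array, and 4 were called: Cct7 at 0.47 ± 0.10 (limma adjusted p = 0.0185), Cct4 at 0.41 ± 0.10 (0.0220), Tcp1 at 0.47 ± 0.12 (0.0296) and Cct5 at 0.42 (0.0364). The same 4 were called after a further quantile normalization and 0 after cyclic loess. IL-1Ra tongue also lay wholly above normal for all 8, with 0 called and a median of 0.26. Over all 14217 genes, 3771 lay wholly above normal in 4NQO tongue and 3681 in IL-1Ra tongue. Over the 5761 genes of like brightness these counts were 2360 and 2226. The subunits Tcp1, Cct2, Cct3 and Cct4 were brighter than the range from which those genes were drawn. Prefoldin, which hands clients to TRiC, had 0 of 5 subunits called in any comparison, and the other J-domain proteins 1 of 4, Hscb in 4NQO tongue (0.51 ± 0.15, 0.0473), a call lost under both other scalings.

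Of 24 genes of ER folding and the unfolded protein response, 4 rose in 4NQO tongue (16.7%, below the 20.5% of genes of like brightness), with Pdia4, a disulphide isomerase, at 0.78 ± 0.16 (limma adjusted p = 0.0148). After quantile normalization Pdia4 was the 1 called and after cyclic loess 0 were. Sdf2l1, an ER protein that binds Dnajb11, read 6.87, 6.85 and 6.67 in normal, 7.29, 7.04 and 7.33 in 4NQO and 8.06, 7.75 and 7.89 in IL-1Ra tongue, 3 separate levels. It was called in all 3 comparisons, at 0.42 ± 0.12 (0.0483), 0.68 ± 0.12 (0.0243) and 1.10 ± 0.12 (0.0196) for 4NQO against normal, IL-1Ra against 4NQO and IL-1Ra against normal, and the last 2 calls were made under both other scalings. In IL-1Ra against normal tongue 4 of the 24 rose, the others being Pdia4 at 0.98 (0.0362), Creld2 at 0.98 (0.0354) and the lectin chaperone Calr at 0.59 (0.0440), and 21 estimates were above 0. These 4 were 16.7% of the list, beside 1.66% of all genes and 2.78% of those of like brightness. Creld2 and Calr lost their calls under both other scalings, and Pdia4 after cyclic loess.

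Of 11 genes of mitochondrial protein quality control, 4 rose in 4NQO tongue (36.4%): the mitochondrial HSP90 Trap1 at 0.49 ± 0.09 (limma adjusted p = 0.0118), the protease Lonp1 at 0.51 ± 0.10 (0.0133), Clpb at 0.49 ± 0.11 (0.0214) and Clpp at 0.40 (0.0439). Lonp1 read 8.51, 8.41 and 8.29 in normal, 8.91, 8.97 and 8.86 in 4NQO and 8.39, 8.47 and 8.44 in IL-1Ra tongue, high on the 4NQO arrays alone in the manner of Hspa9. It was lower in IL-1Ra than 4NQO tongue, at -0.48 ± 0.10 (0.0400), as was the protease subunit Afg3l2, at -0.53 ± 0.11 (0.0396). After quantile normalization Trap1 and Lonp1 were called higher in 4NQO tongue and Lonp1 lower in IL-1Ra than 4NQO, and after cyclic loess 0 of the 11 were called in any comparison. The list median of 0.09 in 4NQO tongue became -0.07 and -0.13.

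Heat shock factors themselves were not called. Hsf1 read 7.26, 7.33 and 7.05 in normal, 7.51, 7.46 and 7.57 in 4NQO and 7.54, 7.33 and 7.30 in IL-1Ra tongue, with 4NQO above normal by 0.30 ± 0.11 (limma adjusted p = 0.100). Hsf2 differed by -0.47 ± 0.12 between IL-1Ra and 4NQO (0.0832). The crystallin Cryab, a small heat shock protein of muscle and lens, read 12.51, 12.58 and 12.56, then 12.68, 12.70 and 12.50, then 12.59, 12.45 and 12.33, and its groups overlapped in all 3 comparisons.

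**Figure D4:**
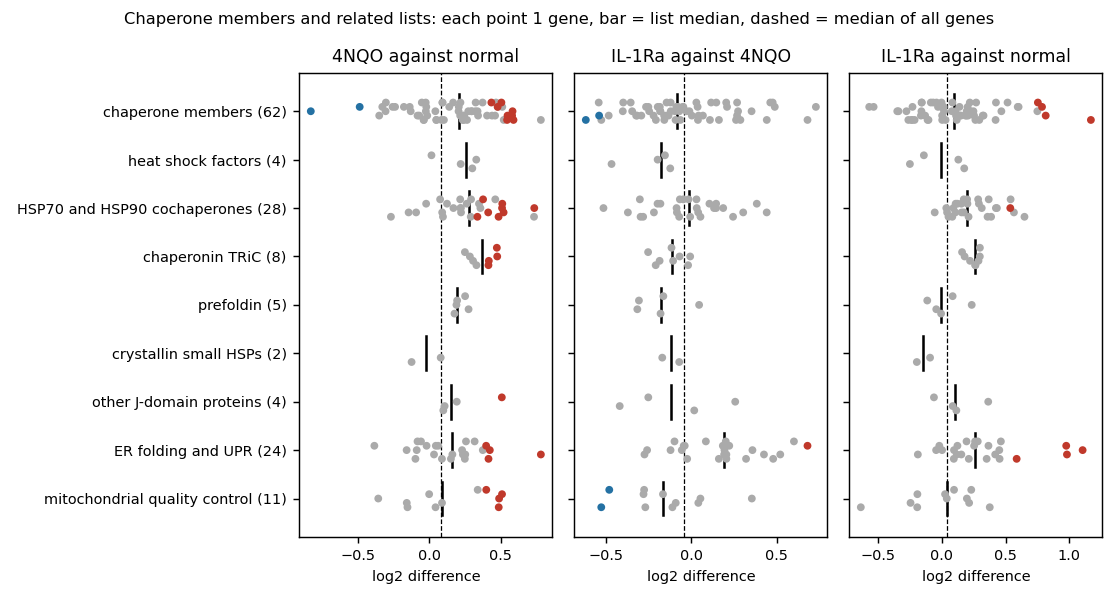
Log2 difference of the 62 chaperone genes and of each gene in the partner lists for the 3 comparisons, with a point per gene (red called higher, blue lower), a bar at the list median and a dashed line at the median of all 14217 genes. In 4NQO against normal the TRiC subunits lie together above 0, with a list median of 0.37, while in IL-1Ra against 4NQO the medians lie between -0.18 and 0.19.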

How the data were processed

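The arrays were Affymetrix Rat Genome 230 2.0 arrays of total RNA from rat tongue tissue. The authors deposited linear intensities, a single value for every probe set on each array. RMA and Affymetrix Expression Console are named in the notes the submitters gave on processing, without versions in the sources used here. RMA corrects background, brings arrays to a common distribution and summarises probes, so a shift common to most genes can be hidden. The number of arrays limits precision.

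All values were converted to log2. The 57 control probe sets were dropped, no cutoff was set for dim ones, and the remaining 31042 entered the fit. Platform annotation gave 20826 of them 1 symbol and 436 several. The RefSeq gene table held all 62 members, and 0 symbols differed. Groups followed the treatment label of each sample. The main test was limma (version 3.58.1, R 4.3.3) with a mean for each of the 3 groups over the 9 arrays and 6 residual and 4.01 prior degrees of freedom. Its p-values were two-sided and, in each of 3 comparisons, went through Benjamini-Hochberg adjustment over all probe sets with a threshold of 0.05. The fit was tested on simulated data. Correlations between arrays ran from 0.967 to 0.995, and 0 pairs were identical. Promoters were searched and figures drawn in Python 3.11.15 with pandas 2.3.3 and matplotlib 3.10.9.

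The members, lists and tests were chosen with earlier results of these data known. Genes were named with a value on every array when called with arrays that did not overlap between the groups, or when on a list of well-known chaperones; of each partner list, those with the lowest adjusted p were named, with Hsf1 and Cryab. Alternatives were a further quantile or cyclic loess normalization, a filter on the dimmest 40% of probe sets, the 6 compared arrays alone, a variance trend, array weights, 1 probe set per gene, the mean of its probe sets, each array left out in turn, and the methods' t-test, standing for the fold and P thresholds of the study.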

Additional observations from a re-analysis of the deposited data

How the results depend on the processing

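For 4NQO against normal, 8 chaperone genes higher and 2 lower became 3 and 3 after a further quantile normalization, 1 and 3 after cyclic loess, 0 and 0 by the methods' t-test at a fold of 2, 1 and 1 at 1.5, and 0 and 0 after Benjamini-Hochberg; leaving out each array gave 1 to 10 higher and 0 to 3 lower. The median difference of 0.2114 became 0.0483 after quantile normalization, 0.0168 after loess and 0.1553 with the mean of a gene's probe sets. For IL-1Ra against 4NQO, 0 higher became 1 with array weights and 0 to 2 with 1 array left out; 2 lower became 0 with the 6 compared arrays alone, 1 with the mean of probe sets, 0, 1 and 0 by the 3 forms of the methods' t-test, and 0 to 4 with 1 array left out. The median of -0.0832 became -0.0165 after loess and ran from -0.1015 to -0.0359 with 1 array left out. For IL-1Ra against normal, 4 higher became 0 after quantile or loess, 9 with the 6 arrays alone, 11 with array weights, 1 by the methods' t-test at a fold of 2, 0 after Benjamini-Hochberg, and 0 to 8 with 1 array left out; 0 lower became 1 with the 6 arrays alone and 2 with array weights. The median of 0.0968 became -0.0148 after quantile normalization and -0.0132 after loess. The filter on dim probe sets, the variance trend and the fit of 1 probe set per gene kept every count within 1.5 times. No called gene changed direction under any alternative; the causes were not tested. No paired analysis was possible because the labels give no replicate numbers that groups share.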
